A study of Mus musculus with 5 samples.

Results

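Immature neutrophils and granulocyte precursors were examined in marrow cells sorted for a stromal reporter, where they made up 2037 of the 47829 cells kept. A cell belonged to them when it had at least 500 genes, at least 1000 UMIs (unique molecular identifiers, each standing for 1 captured transcript), a mitochondrial share under 25% and less than 100 Cxcl12 UMIs per 10000. It also had either at least 20 UMIs per 10000 of Camp, Ltf and Ngp together, or a UMI of at least 3 of Mpo, Elane, Prtn3, Ctsg, Ms4a3 and Fcnb. The cells were thus chosen by their measured Cxcl12 level and their levels of those 9 granule genes, which are given as a description. All mice carried Lepr-cre and the R26R-tdTomato reporter, which marks cells that have expressed the leptin receptor, and tdTomato-positive cells of dissociated femurs were sorted and loaded on a BD Rhapsody instrument. Control was uninjured at 15 weeks. Naive mice were 15 weeks old and had 1 marrow ablation at 13 weeks, while exhausted mice of that age had ablations at 9 and 13 weeks. Aged was uninjured at 18 months, and aged-injury had 1 ablation 1 week before collection at 18 months. Each group was 1 library. The labels give neither the number of animals nor a batch, so age, surgery, animal and library cannot be told apart, no test between groups exists, and intervals cover counting error only. Values for 5 libraries stand in the order control, naive, exhausted, aged and aged-injury, and the first 3 of that order where 3 are given.

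Granulopoiesis runs from myeloid progenitors through promyelocytes, myelocytes and metamyelocytes to band and segmented neutrophils. Granule proteins are made in waves: proteases and myeloperoxidase of the primary (azurophil) granules in promyelocytes, lactoferrin and cathelicidin of the secondary (specific) granules in myelocytes and metamyelocytes, and gelatinase of the tertiary granules later. The transcription factors PU.1 (gene Spi1) and C/EBPα act early on this path, and C/EBPε is needed for secondary granule genes. Division ends at the myelocyte stage. The rule thus takes in 2 of the granule waves, and cells that pass it by the primary genes alone, by Camp, Ltf and Ngp alone, or by both are called primary-only, secondary-only and overlap cells below.

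Promoters of some genes of the 2 waves are shown: Elane, Prtn3, Mpo, Ngp and Ltf of the rule, and Lcn2, which the rule does not use. Each window shown held a match. Of the genes of the rule not shown, Camp, Ctsg and Ms4a3 held none and Fcnb did, as given below. The 250 bases before the start site of 6 genes are given, from RefSeq on the GRCm38.p6 build, an older build than the GRCm39 named for these files. Capitals mark GAGGAAGT, letters of the kind PU.1 binds, or TTGCNNAA, letters of the kind C/EBP factors bind, searched on both strands (ACTTCCTC and TTNNGCAA). No match of one overlapped a match of the other in the windows searched. The windows are Elane chr10:79886062-79886311 (plus strand), Prtn3 chr10:79879417-79879666 (plus strand), Mpo chr11:87793534-87793783 (plus strand), Ngp chr9:110419558-110419807 (plus strand), Ltf chr9:111019042-111019291 (plus strand) and Lcn2 chr2:32387740-32387989 (minus strand).
Elane: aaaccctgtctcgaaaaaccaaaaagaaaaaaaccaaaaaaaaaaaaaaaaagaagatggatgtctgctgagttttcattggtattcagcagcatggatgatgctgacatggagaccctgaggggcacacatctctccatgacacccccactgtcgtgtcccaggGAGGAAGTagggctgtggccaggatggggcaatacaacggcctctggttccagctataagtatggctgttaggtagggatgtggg
Prtn3: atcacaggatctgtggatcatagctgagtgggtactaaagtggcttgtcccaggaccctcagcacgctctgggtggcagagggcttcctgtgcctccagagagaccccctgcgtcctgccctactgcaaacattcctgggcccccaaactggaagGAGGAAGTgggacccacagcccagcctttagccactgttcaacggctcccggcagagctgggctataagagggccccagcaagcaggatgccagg
Mpo: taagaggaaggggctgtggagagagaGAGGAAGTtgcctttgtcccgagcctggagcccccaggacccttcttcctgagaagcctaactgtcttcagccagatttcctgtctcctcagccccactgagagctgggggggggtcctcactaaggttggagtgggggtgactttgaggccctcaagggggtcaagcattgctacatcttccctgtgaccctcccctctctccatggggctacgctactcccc
Ngp: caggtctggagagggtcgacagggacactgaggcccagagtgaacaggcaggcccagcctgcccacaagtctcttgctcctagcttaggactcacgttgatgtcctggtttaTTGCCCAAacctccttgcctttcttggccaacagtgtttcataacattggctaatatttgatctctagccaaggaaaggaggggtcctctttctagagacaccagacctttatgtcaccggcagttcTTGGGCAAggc
Ltf: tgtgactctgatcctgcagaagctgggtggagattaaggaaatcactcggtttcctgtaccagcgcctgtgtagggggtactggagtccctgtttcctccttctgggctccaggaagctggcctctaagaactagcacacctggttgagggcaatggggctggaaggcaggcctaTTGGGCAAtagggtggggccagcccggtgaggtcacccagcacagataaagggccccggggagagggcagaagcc
Lcn2: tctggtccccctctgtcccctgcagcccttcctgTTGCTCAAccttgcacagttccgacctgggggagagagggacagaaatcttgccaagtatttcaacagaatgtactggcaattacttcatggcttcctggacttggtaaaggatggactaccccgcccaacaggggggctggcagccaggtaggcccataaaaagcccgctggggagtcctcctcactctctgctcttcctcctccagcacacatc
Elane, Prtn3 and Mpo, the neutrophil serine proteases and the peroxidase of the primary granule, each held 1 match to GAGGAAGT. Ngp held 2 matches to TTGCNNAA, and Ltf and Lcn2 held 1 each. Of 32851 promoter windows of this length that were searched, 2.44% held GAGGAAGT and 9.56% held TTGCNNAA on either strand. Neither set of letters stood in the windows of Camp, Ctsg, Ms4a3 and Chil3, while Fcnb, a primary granule gene of the rule, held 2 matches to TTGCNNAA. The letters were not split by wave: S100a8 and Mmp8 held GAGGAAGT, and Mmp8, S100a9 and Retnlg held TTGCNNAA. A match is a description of the letters, not evidence of binding.

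Of the 2037 cells, 1476 (72.5%) were secondary-only, 205 (10.1%) overlap and 356 (17.5%) primary-only. The secondary-only and overlap cells carried RNA of the neutrophil lineage, which sets them apart from stroma but does not give their stage. Lcn2, the secondary granule protein lipocalin that the rule does not use, stood at 18443, 17617, 16184, 17269.7 and 11594 UMIs per 1000000 (CPM) in secondary-only cells and at 121, 15.5, 87.2, 35.8 and 18.2 in reticular cells, the Cxcl12-rich stromal cells of the same libraries. Primary-only cells went partly against the label. Of these 356 cells, 275 had at least 40 UMIs per 10000 on a list of 15 monocyte and macrophage genes, against 31 of 205 overlap and 78 of 1476 secondary-only cells. Primary granule genes are transcribed in progenitors shared by neutrophils and monocytes, and the rule cannot separate the 2 lineages there.

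**Figure D1:**
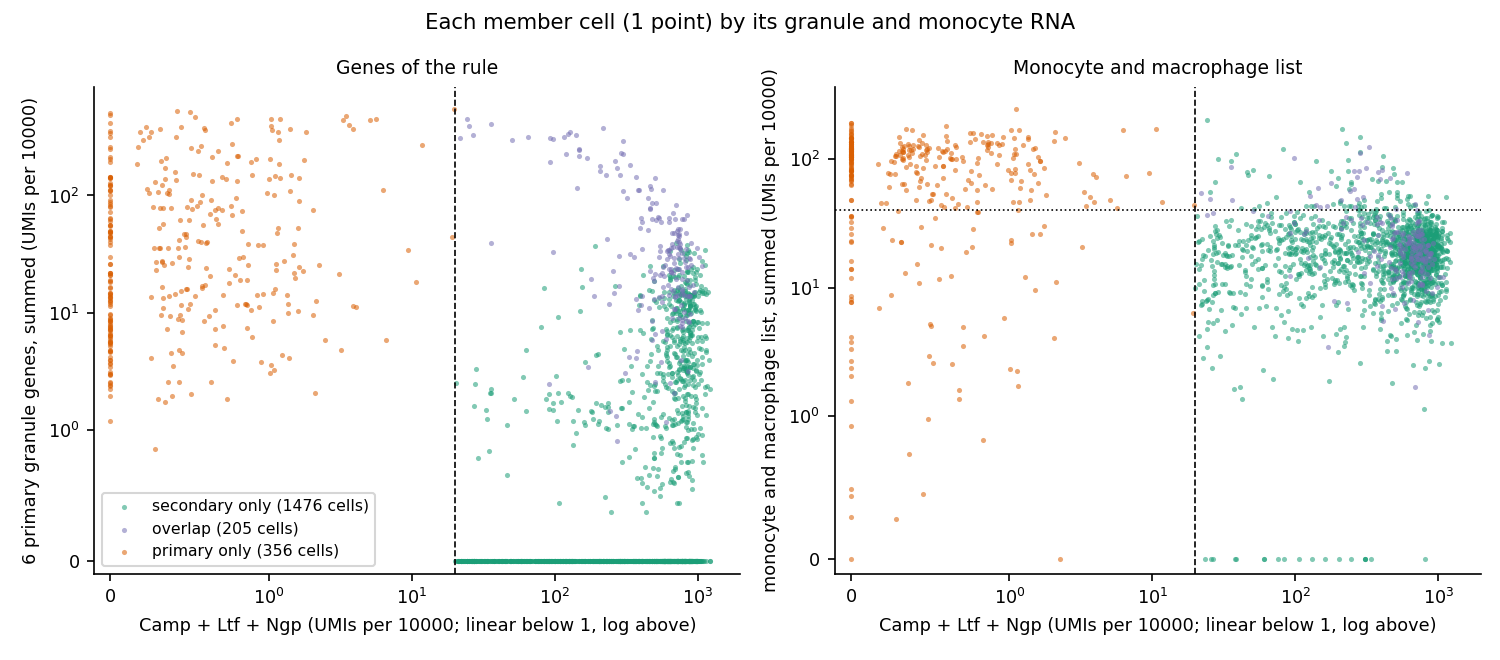
Each point is 1 of the 2037 cells. Both panels plot the summed Camp, Ltf and Ngp level (UMIs per 10000, x axis, dashed line at 20) against the summed level of the 6 primary granule genes (left) or of the monocyte and macrophage list (right, dotted line at 40). Primary-only cells lie mostly above the dotted line and the other cells mostly below it.

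Cells close to the thresholds were few on the secondary arm and more frequent on the primary arm. There were 102 cells just outside the Camp, Ltf and Ngp threshold (10 to 20 UMIs per 10000) and 104 just inside it (20 to 40). Those outside had 34650.1 CPM of S100a8 and those inside 37840. Both ranges thus held neutrophil RNA at a like level. On the other arm, 161 cells had a UMI of exactly 2 of the 6 primary genes and 103 of exactly 3, with median primary sums of 2.08 and 6.35 UMIs per 10000. Granule RNA was also found in other cells, whether from free RNA or from doublets, which was not tested. Ngp had a UMI in 36, 14.3, 25.1, 9.88 and 1.15% of reticular cells, which should lack it, against 94.6, 85.4, 92.8, 92.6 and 75.7% of the cells under study. Median depths were 8939, 8336, 7631, 7333 and 10010 UMIs in reticular cells and 11941, 13118, 9694.5, 11696.5 and 12450 in the cells under study. Of 28556 reticular cells, 65 passed the secondary threshold and 40 the primary one. In aged-injury these were 9 and 14 of 12145 reticular cells, beside 37 cells under study, of which 15 had at least 3 primary granule genes. The background was thus not small beside the cells of that library.

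The sorted reporter was close to absent from these cells. The tdTomato level was 2.23, 3.09, 2.01, 2.34 and 13.1 CPM, from 25, 15, 22, 5 and 8 UMIs, and 88.9, 73.5, 67.5, 84.8 and 75.2 CPM in reticular cells. The sort selected for the reporter protein, and how these cells came through it was not tested. The share they form of a library therefore describes the sorted material and not the marrow.

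In all 5 libraries, kept cells numbered 9253, 5242, 6277, 7560 and 19497, and reticular cells were 66.6, 44.3, 35.2, 75.6 and 62.3% of them. Immature neutrophils and precursors numbered 708, 288, 842, 162 and 37. They were 7.65, 5.49, 13.4, 2.14 and 0.19% of kept cells, with 95% Clopper-Pearson intervals of 7.12 to 8.21, 4.89 to 6.15, 12.6 to 14.3, 1.83 to 2.49 and 0.134 to 0.261. None of these intervals overlapped. Exhausted was the highest and aged-injury the lowest. The order depended on what the share was taken of: among kept cells below the Cxcl12 limit, which leaves out reticular cells, the shares were 22.9, 9.87, 20.7, 8.79 and 0.503%, with the intervals of control (21.4 to 24.4) and exhausted (19.5 to 22) overlapping. Naive at 8.81 to 11% and aged at 7.54 to 10.2% overlapped too. Aged-injury stood lowest on either base.

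**Figure D2:**
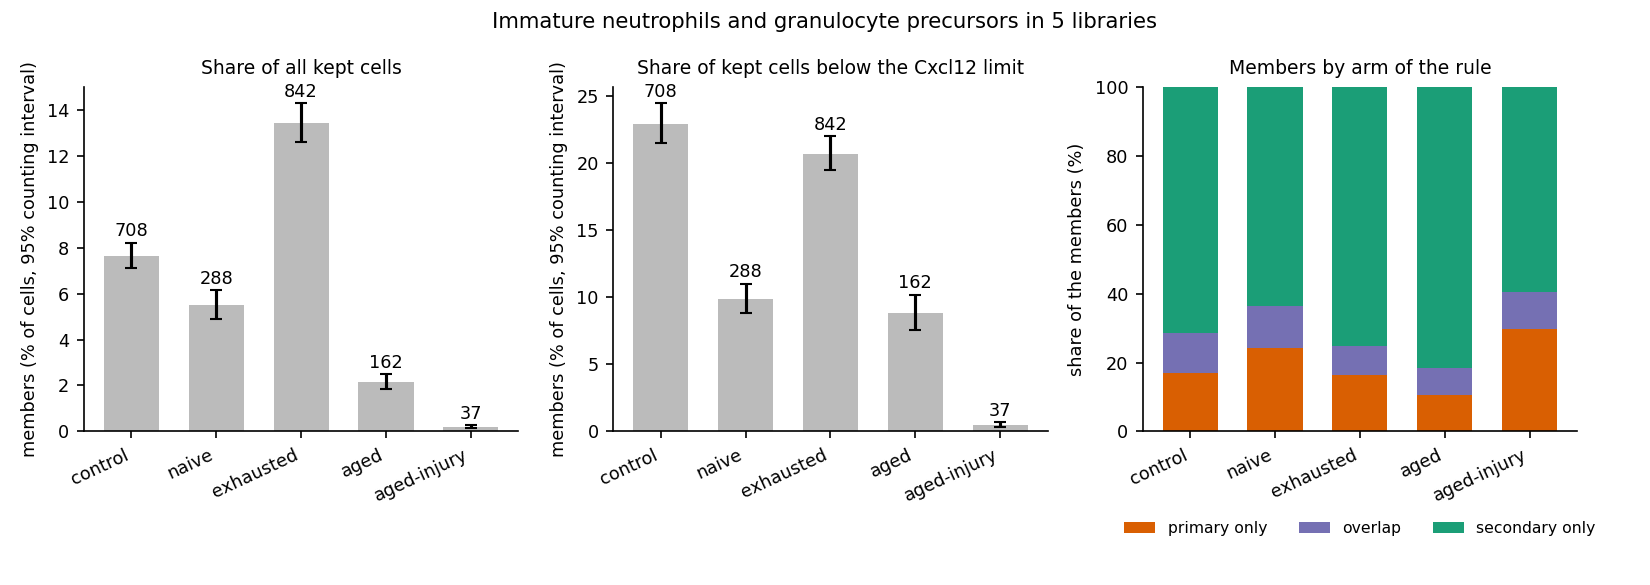
Shares of the 2037 cells by library (x axis) with exact 95% counting intervals as error bars and cell numbers above the bars, as percent of all kept cells (left) and of kept cells below the Cxcl12 limit (middle). The right panel splits the cells of each library by arm of the rule. Exhausted is highest on the left, and control and exhausted overlap in the middle.

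Balance between the cells under study and neutrophils outside the rule also differed between libraries. Neutrophils outside the rule, with at least 100 UMIs per 10000 of S100a8 and S100a9, numbered 137, 88, 325, 52 and 1. The cells under study were 83.8, 76.6, 72.2, 75.7 and 97.4% of the 2 classes together, with intervals of 81.1 to 86.2, 72 to 80.8, 69.5 to 74.7, 69.4 to 81.3 and 86.2 to 99.9%. Control stood above naive and exhausted and overlapped aged, and aged-injury had 1 beside 37 cells under study. The split does not part early from late cells cleanly. Retnlg, a gene of maturing neutrophils, stood at 32223 CPM in cells just outside the Camp, Ltf and Ngp threshold and at 31619.5 just inside it. Cells with at least 3 primary granule genes were 28.7, 36.5, 24.7, 18.5 and 40.5% of the immature cells and precursors, from 203, 105, 208, 30 and 15 cells. Their intervals were 25.4 to 32.2, 30.9 to 42.3, 21.8 to 27.8, 12.9 to 25.4 and 24.8 to 57.9%, so naive stood above exhausted and aged, and aged-injury overlapped every other library. Thinning each cell to 2000 UMIs and applying the rule again lowered these shares to 13.8, 19.1, 13.5, 9.55 and 34.3%, with naive still above exhausted and aged in these values.

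Depth over all libraries was lower in each group in the order primary-only, overlap, secondary-only and neutrophils outside the rule. Median UMIs per cell were 24424.5 in primary-only, 23258 in overlap, 8832.5 in secondary-only cells and 4505 in neutrophils outside the rule. Median genes per cell were 5149, 4509, 2237.5 and 1445. Median mitochondrial shares were 7.23%, 4.32%, 1.31% and 0.629%. Levels below are CPM over the summed UMIs of a group of cells, so a high gene lowers the others' share. Contrasts between arms were called when a gene was at least 2-fold apart in the same direction in each of control, naive and exhausted, the 3 libraries with at least 30 cells in every arm, a choice made after the cell numbers were seen. Since the arms were set by measured genes of the same cells, these contrasts are descriptions.

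The primary granule genes themselves set the outline. Elane, neutrophil elastase, stood at 2243, 2413, 3551, 1085 and 4879 CPM in primary-only, 1513, 2788, 2536, 2072 and 1974 in overlap and 3.25, 5.78, 5.36, 0.667 and 3.84 in secondary-only cells. Mpo, myeloperoxidase, stood at 3013, 3824, 4701, 1823 and 7554 CPM in primary-only cells, at 879.8, 2225, 1479, 1302 and 2627 in overlap cells and at 2.53, 2.89, 4.15, 0.667 and 0 in secondary-only cells. Both were lowest in the primary-only cells of aged and highest in those of aged-injury. Fcnb, ficolin B, ran differently, at 152, 119.8, 344, 64.4 and 389 CPM in primary-only, 2286, 3039.6, 2539, 2292 and 2467 in overlap and 322, 202, 358, 340.4 and 349.7 in secondary-only cells. Its overlap values exceeded the others in every library. Camp, the cathelicidin gene, reached 8664, 7976, 7475, 8014 and 8967 CPM in overlap and 6289, 5300.3, 5719, 6095 and 5180.1 in secondary-only cells, whereas Ltf, lactoferrin, had 6899.8, 4999.7, 5631, 5655 and 1813 in overlap and 10644, 10012, 9259, 10305 and 8789 in secondary-only cells. Camp was thus higher in overlap and Ltf in secondary-only cells in all 5 libraries, the latter with only 4 overlap cells in aged-injury.

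Primary-only against overlap cells, 11.8% of 3758 measured genes were called higher and 7.64% lower. Of 12 measured early progenitor genes, 8 were higher and 1 lower. Cd34, the sialomucin of stem and progenitor cells, stood at 169.8, 118, 107, 191 and 14.9 CPM in primary-only cells and at 1.33, 3.19, 2.47, 0 and 0 in overlap cells, a gap seen in every library, though small in aged-injury. Npm1, the nucleolar protein nucleophosmin, was 6.35, 4.9 and 4.73-fold higher. Of 14 endoplasmic reticulum chaperone and folding genes, which serve secretory protein synthesis, 8 were higher and none lower, among them Calr (calreticulin) by 4.4, 4.11 and 4.55-fold. The median log2 ratio was 1.16 for that list and 0.26 over all measured genes.

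Monocyte genes were part of the same contrast. Of 9 measured monocyte and macrophage genes, 6 were higher in primary-only than in overlap cells and none lower. Csf1r, the receptor for macrophage colony-stimulating factor, stood at 191, 158, 157, 185 and 82.2 CPM in primary-only and 35.8, 20.2, 27.8, 33.5 and 0 in overlap cells. Ccr2, the chemokine receptor of classical monocytes, was 12.1, 11.9 and 10.5-fold higher. Among 17 transcription factors, Irf8 and Klf4, which act in monocyte development, Cebpa and Rara were higher, and Cebpe, Id2 and Mxd1 lower. Irf8 stood at 461, 242, 399.7, 346 and 273 CPM in primary-only and 38, 18.1, 21.7, 67 and 0 in overlap cells. Cebpe stood at 11.8, 19.6, 29.9, 8.05 and 67.2 CPM in primary-only and 195, 199.9, 173, 141 and 296 in overlap cells, lower in primary-only cells in every library.

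Within the primary-only cells, 3 ranges were set apart after their values were seen. The 274 cells with at least 40 UMIs per 10000 on the monocyte list, and under 100 on a basophil, mast cell and eosinophil list, held 4752 CPM of Ly6c2, a surface antigen of classical monocytes, and 6267 of Lyz2, lysozyme. They also held 2794 CPM of Elane and 3503 of Mpo. The 68 cells with less monocyte RNA held 769 CPM of Ly6c2, 135 of Lyz2, 3135 of Elane and 5605 of Mpo. Progenitor genes were concentrated in them: Cd34 stood at 401 against 65.1 CPM, and Flt3, a receptor of early progenitors, at 132 against 19. In control, naive and exhausted taken singly, Cd34 was 471, 334 and 361 CPM in the cells with less monocyte RNA and 82.9, 49.6 and 57.6 in the others. Only 33 cells lay between 30 and 50 UMIs per 10000 on the monocyte list. Ly6c2 is itself on that list, so its gap between these ranges follows from the cut. It also stood at 3515 CPM in overlap cells with 20 to 200 UMIs per 10000 of Camp, Ltf and Ngp. In the 7 aged-injury cells past the monocyte cut, Ly6c2 stood at 6619 CPM but Lyz2 at 534.

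The remaining 14 primary-only cells carried basophil and eosinophil RNA. They held 20586 CPM of Prss34, a basophil protease gene, 6916 of Mcpt8, another, and 40641.5 of Prg2, the eosinophil major basic protein, and they came from control (3), naive (6) and exhausted (5). Their Mpo stood at 2449 CPM and their Elane at 452. These 14 cells met the rule through its primary genes and are not neutrophil precursors by their leading genes. Cells past the same limit of the basophil, mast cell and eosinophil list were not confined to this arm. They were 14 of 356 primary-only, 5 of 205 overlap and 31 of 1476 secondary-only cells, 50 over all arms. By number, most were thus secondary-only, and whether they were doublets was not tested.

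Overlap cells joined primary granule RNA to the secondary wave and to division. Against secondary-only cells, 16.3% of 3289 measured genes were called higher and 6.78% lower. All 14 measured DNA replication genes and all 18 measured mitosis genes were at least 2-fold higher in each of the 3 libraries. Their median log2 ratios were 2.75 and 2.21, against 0.12 over all measured genes. Mki67, the proliferation antigen Ki-67, stood at 1249.7, 1040.2, 994, 807 and 678 CPM in overlap and 278, 181, 308, 178 and 496 in secondary-only cells. Overlap values were the higher ones in each library, by the least in aged-injury. Top2a, topoisomerase IIα, was 5.05, 6.91 and 3.68-fold higher, and Mcm5, part of the replicative helicase, 5.27, 20.1 and 7.68-fold. Chil3, a chitinase-like lectin of immature neutrophils, stood at 7434, 8277, 7158, 7489 and 3885 CPM in overlap, 4437, 4397, 4469, 4841 and 4899.6 in secondary-only and 393, 517, 397, 341 and 325 in primary-only cells.

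Later neutrophil genes were lower in overlap than in secondary-only cells. All 7 measured tertiary granule genes were at least 2-fold lower in each of the 3 libraries, and so were 12 of 19 mature neutrophil genes. Mmp9, gelatinase B of the tertiary granule, stood at 428, 232, 432, 639.9 and 0 CPM in overlap and 3039.6, 3244, 2578, 2844 and 1909.9 in secondary-only cells. Retnlg, a resistin-like gene of maturing neutrophils, stood at 2500.3, 2300.4, 2049.8, 3649.8 and 24.7 in overlap and 15684, 18906, 14942.5, 14405 and 13281 in secondary-only cells. Mmp8, neutrophil collagenase, which is counted among the secondary granule proteins, went with this later group, at 532, 532, 648, 923 and 0 CPM in overlap and 4743, 5994, 4731, 4651 and 3831 in secondary-only cells. Overlap values were lower in every library for all 3 genes. Cxcr2, the receptor through which neutrophils leave marrow, was 3.71, 8.03 and 4.36-fold lower in overlap cells, and Ly6g, the antigen of the neutrophil lineage, 4.28, 5.34 and 3.68-fold.

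Genes listed for the NADPH oxidase, the enzyme of the respiratory burst, set primary-only cells apart from the other 2 arms. The list includes Hvcn1, a proton channel gene that is not a subunit. Of 7 genes, 6 were at least 2-fold lower in primary-only than in overlap cells, and 0 differed by that much between overlap and secondary-only cells. Most primary-only cells held RNA of the monocyte list, as given above, so lineage and stage cannot be told apart in the first of these contrasts. Cybb, the catalytic gp91phox subunit, stood at 567, 672, 556, 805 and 325 CPM in primary-only, 3026, 2780.1, 2955, 3609 and 3034 in overlap and 3723, 3589, 3584, 3899 and 3689 in secondary-only cells. It stood at 395, 384, 545 and 386 CPM in neutrophils outside the rule, leaving out aged-injury, which had 1 such cell.

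**Figure D3:**
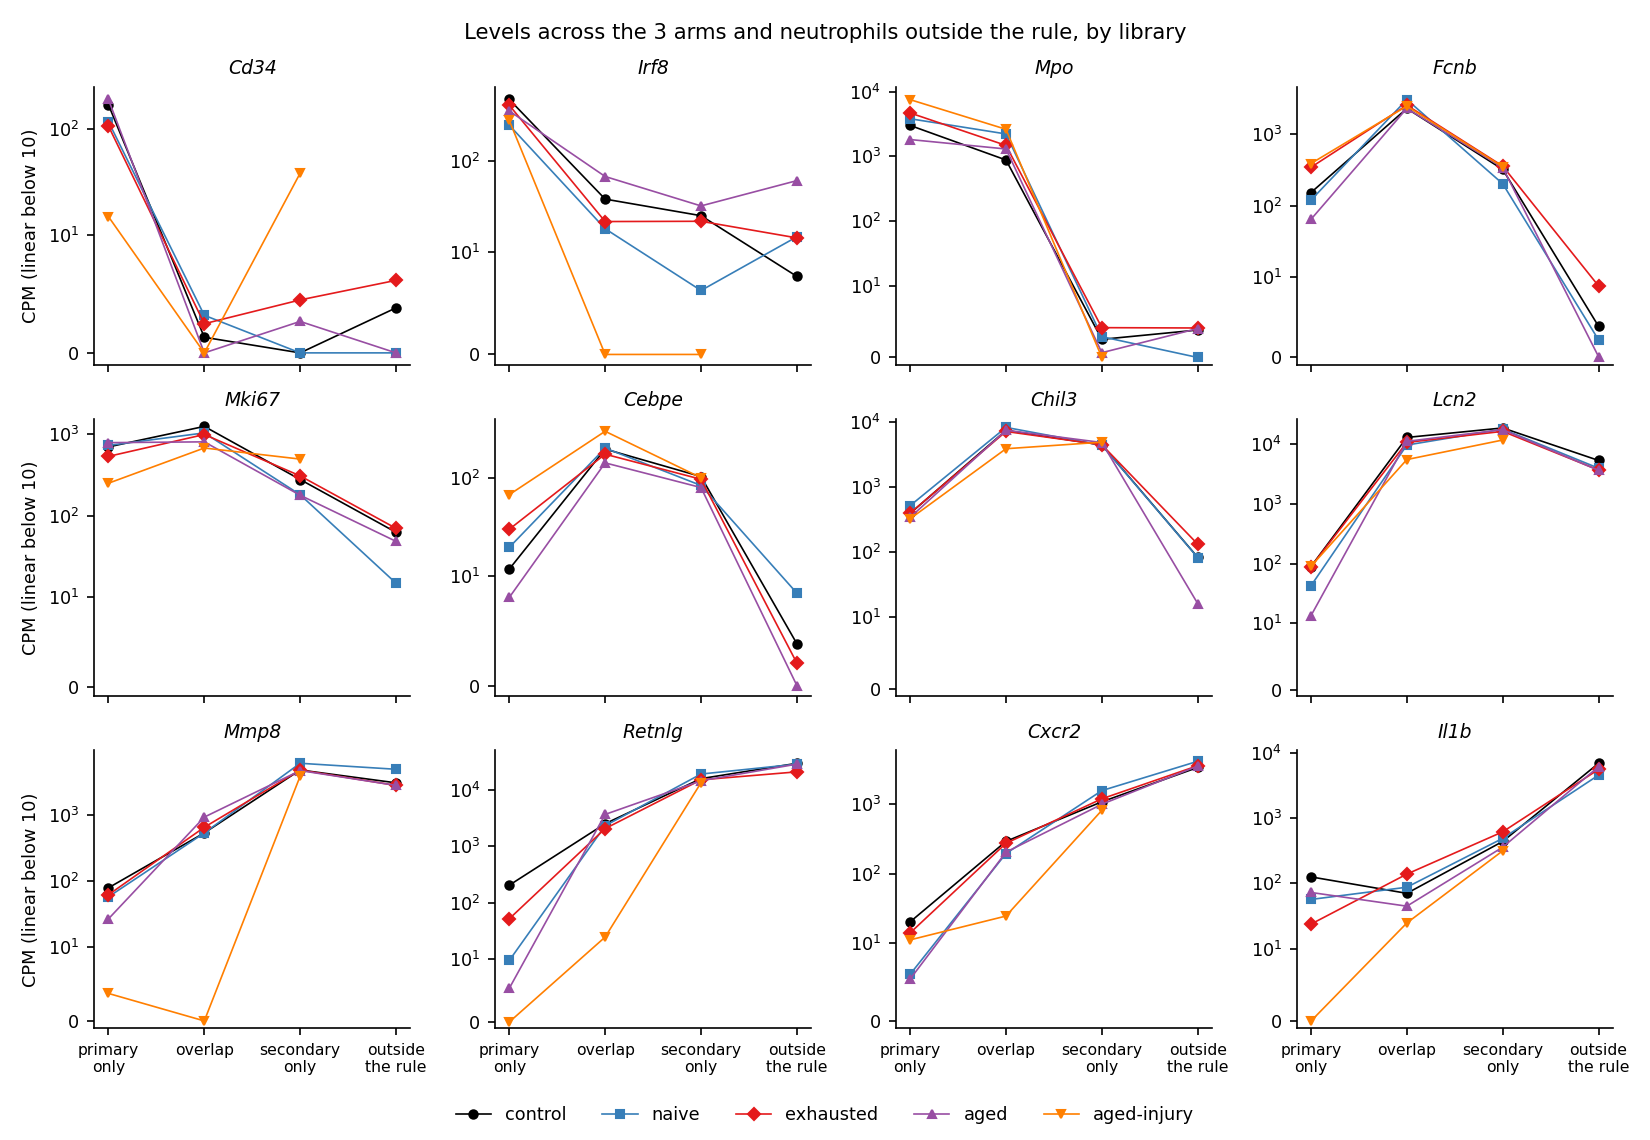
Levels (CPM, log axis that is linear below 10) of 12 genes in primary-only, overlap and secondary-only cells and in neutrophils outside the rule, 1 line per library; aged-injury has no point outside the rule. Cd34 and Irf8 are highest in primary-only, Fcnb and Cebpe in overlap cells, and Cxcr2 and Il1b in neutrophils outside the rule.

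Against neutrophils outside the rule, secondary-only cells had 6.9% of 2781 measured genes called higher and 10.3% lower. Of 15 secondary granule genes that the rule does not use, 10 were higher and none lower. Chil3 was 53.6, 53.4 and 33.8-fold higher, Cybb 9.42, 9.34 and 6.58-fold and Cebpe 26.9, 9.87 and 46.9-fold, the last on few UMIs outside the rule. Of 19 mature neutrophil genes, 12 were lower in secondary-only cells and none higher. Il1b, interleukin-1β, stood at 438, 489, 616 and 358 CPM in secondary-only cells and 6929, 4563, 5581 and 6143 outside the rule in the first 4 libraries. Csf3r, the receptor for granulocyte colony-stimulating factor, was 6.51, 4.49 and 5.83-fold lower and Cxcr2 3.12, 2.64 and 2.99-fold lower. Retnlg and Mmp9 did not separate these groups by 2-fold: Retnlg stood at 15684, 18906, 14942.5 and 14405 against 29265, 28287, 20668.5 and 28322.5 CPM, and Mmp9 at 3039.6, 3244, 2578 and 2844 against 3346, 2891, 2481 and 3067.

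Inflammatory and interferon genes were lower in secondary-only cells than outside the rule. Of 12 inflammatory genes, 9 were at least 2-fold lower in each of the 3 libraries, and of 8 interferon response genes 6. Cxcl2, a neutrophil-attracting chemokine, was 8.98, 5.35 and 6.46-fold lower, Ptgs2, cyclooxygenase-2, 16.4, 9.99 and 11.3-fold, and Ifitm1, an interferon-induced membrane protein, 16.3, 9.59 and 12.3-fold. Erythroid RNA was also unequal between these groups: the erythroid list summed to 6918, 315, 4372 and 419 CPM in secondary-only cells and 12508, 10482, 11580.2 and 471 outside the rule, and its part in these contrasts was not tested.

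Inside the arms, the summed Camp, Ltf and Ngp level ordered other genes too. Among overlap cells, the 26 with 20 to 200 UMIs per 10000, the 55 with 200 to 500 and the 124 with more had 3403, 2366 and 2317 CPM of Fcnb, 2609, 5348 and 10074 of Chil3 and 1799.8, 7778 and 16123 of Lcn2. Mki67 was 819, 891 and 1301 CPM, highest in the overlap cells richest in secondary granule RNA. Pcna, a DNA replication gene, was lowest in those cells, at 624, 566 and 492 CPM in the same order. Among secondary-only cells, late genes stood lowest in the range with the most Camp, Ltf and Ngp. In the 253 cells with 20 to 100 UMIs per 10000, the 270 with 100 to 300, the 307 with 300 to 600 and the 646 with more, Retnlg stood at 34556, 29569.6, 17845 and 6532 CPM and Il1b at 1836, 750.01, 459 and 167. Cebpe stood at 29.4, 40.6, 72.1 and 136 and Chil3 at 304, 895, 3349 and 6982. In control, naive and exhausted taken singly, Il1b was lower and Chil3 higher in the top range than in the bottom one: Chil3 went from 498, 74.8 and 129 to 6596, 7116 and 7253 CPM. Fcnb, a gene of the rule, and Retnlg followed no single order there. Fcnb of overlap cells in naive stood at 2763, 3546 and 2905 CPM in rising order of range, and Retnlg of secondary-only cells in control at 34978, 36168, 17991 and 7004.

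Division was read from 19 mitosis genes, with a cell counted as dividing when at least 2 of them had a UMI. Over all UMIs, 45.2, 47.9, 40, 37 and 54.1% of the immature cells and precursors met this. Because depth differed between the arms, each cell was thinned to 2000 UMIs, which left out 20 shallower cells. After thinning, dividing cells were 73.2% of primary-only, 86.8% of overlap and 14.5% of secondary-only cells over all libraries. They were 2.72% of neutrophils outside the rule and 0.881% of 1475 reticular cells, the background. By library, secondary-only cells had 13.3, 9.29, 16.4, 14.4 and 33.3% dividing, with intervals of 5.51 to 14.5% in naive and 13.6 to 19.5% in exhausted, which overlap. Primary-only cells had 73.6, 78.6, 72.1, 64.7 and 63.6% and overlap cells 86.6, 94.3, 81.7, 92.3 and 100%. Among secondary-only cells, the 4 ranges of Camp, Ltf and Ngp given above held 4.18, 7.09, 16.7 and 20.3% dividing cells, in rising order of that level. The ranges of overlap cells held 96.2, 81.8 and 87.1%, so their dividing share did not rise with that level.

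**Figure D4:**
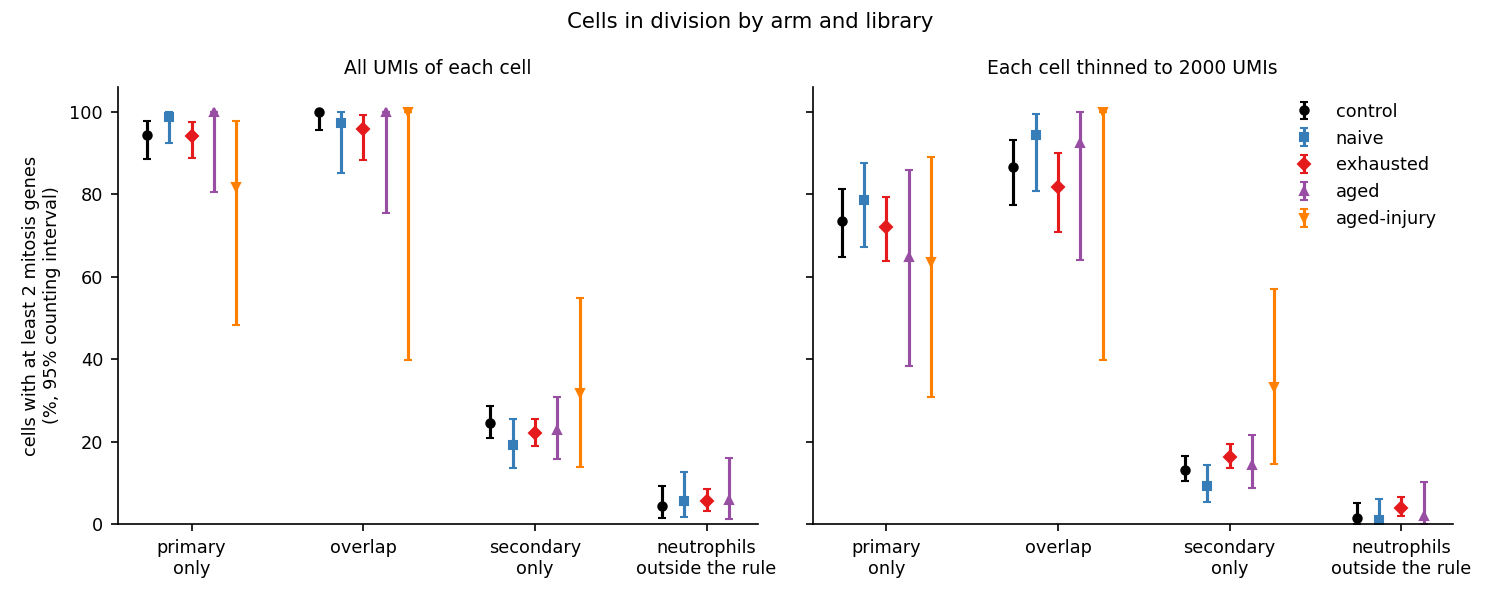
Percent of cells with at least 2 of 19 mitosis genes (y axis, exact 95% counting intervals as bars) by arm and library, over all UMIs (left) and after thinning each cell to 2000 UMIs (right). Primary-only and overlap cells lie above secondary-only cells in every library, and neutrophils outside the rule lie lowest; aged-injury is left out there, with 1 cell.

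Granule genes of the 3 young libraries were mostly within 2-fold of each other. Naive against control, 0.724% of 3454 measured genes were at least 2-fold apart, exhausted against control 0.761% of 3416, exhausted against naive 0.701% of 3424 and aged against control 1.44% of 3480. Control and naive each serve in more than 1 of these comparisons. Among 15 secondary granule genes that the rule does not use, 7 tertiary granule genes and 18 mature neutrophil genes, none was 2-fold apart in naive or exhausted against control. In secondary-only cells, which hold the arm constant, Ltf stood at 10644, 10012, 9259, 10305 and 8789 CPM, Ngp, a cathelin-family granule protein, at 41177, 39709, 37409.7, 39654 and 40549.7, and Camp as given above. Control was highest for Ltf and aged-injury lowest. Itgam, the CD11b integrin chain, stood at 1827, 1898, 1716, 1822 and 1456 CPM and S100a8, a calprotectin subunit, at 49742, 56996, 56267.5, 48194.5 and 58261.

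After 1 ablation in young mice, 8 genes were higher and 17 lower than in control (0.232% higher and 0.492% lower of the measured genes). Of 7 measured primary granule genes that the rule does not use, 6 stood above control, none by 2-fold, with a median log2 ratio of 0.23. The intervals of the primary arm in naive and control overlapped, as given above. Ccl4, an inflammatory chemokine, had 95.8 CPM in naive and 39.9 in control, 2.4-fold (95% counting interval 2.1 to 2.74) higher. Without the 50 cells that had at least 100 UMIs per 10000 on the basophil, mast cell and eosinophil list, its log2 ratio went from 1.26 to 0.57, under 2-fold. Mcpt8, Cpa3 and Ms4a2, genes of basophils and mast cells, were also higher, and 5 cells held 98.7% of the naive Mcpt8 UMIs. Igha and Jchain, immunoglobulin genes of plasma cells, were lower by the largest ratios. In control, 5 of 708 cells held 97.5% of the 6392 Igha UMIs and 99.2% of the 2231 Jchain UMIs, against 2 UMIs of each in naive. Among the 17 lower genes were 4 of 5 measured erythroid genes and 4 of 7 stromal ones. Cxcl12 stood at 791, 243, 261, 725 and 1301 CPM in the immature cells and precursors of the 5 libraries, and the stromal list in neutrophils outside the rule at 2354, 1246, 999.9 and 2001 CPM in the first 4.

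In secondary-only cells of naive, Pcna and Rrm2, both DNA replication genes, were 2-fold lower than in control, and no mitosis gene was. Of 11 measured mitosis genes, 0 stood above control and 0 were lower by 2-fold, with a median log2 ratio of -0.62 against -0.02 over all measured genes, of which 1.05% were 2-fold apart (0.272% higher and 0.783% lower). Pcna, the replication clamp, stood at 127, 56.4, 115, 127 and 119 CPM in the secondary-only cells of the 5 libraries, and naive was lowest. In naive it was 2.26-fold (95% counting interval 1.86 to 2.77) lower than in control, and Rrm2, ribonucleotide reductase, 2.59-fold (95% counting interval 2.06 to 3.3) lower. Exhausted lay on the other side, with all 11 measured mitosis genes above control, none by 2-fold, and a median log2 ratio of 0.25; there 0.888% of 2929 measured genes were 2-fold apart (0.58% higher and 0.307% lower). Against naive, exhausted had 2 of 11 mitosis genes and 2 of 3 replication genes 2-fold higher, with 1.33% of 2930 measured genes 2-fold apart (1.19% higher and 0.137% lower). Tertiary granule and mature neutrophil genes of naive secondary-only cells stood above control in 7 of 7 and 16 of 19 cases, none by 2-fold, with medians of 0.23 and 0.19. The share of dividing cells in these libraries overlapped within counting error, as given above.

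After 2 ablations, 9 genes were higher and 17 lower than in control (0.263% higher and 0.498% lower). Among the higher ones were genes of class II antigen presentation. H2-Eb1 stood at 168 CPM against 59.2, 2.83-fold (95% counting interval 2.59 to 3.1), H2-Ab1 was 2.65-fold (95% counting interval 2.44 to 2.87) higher and Cd74, the invariant chain, 2.25-fold (95% counting interval 2.13 to 2.38). H2-Eb1 had UMIs in 107 of 842 cells in exhausted and 48 of 708 in control, and 5 cells held 47.4% and 76.6% of them. In the cells with at least 3 primary granule genes the ratio turned, to a log2 value of -0.33. C1qc and C1qb, complement genes of macrophages, were 5.35 and 5.19-fold higher. Rgs5, a gene of pericytes, was 40.2-fold (95% counting interval 25.9 to 66.2) higher, and 5 cells held 97.5% of its UMIs. These genes mark other cell types, whose part in the values was not tested.

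Against naive, exhausted had 14 genes higher and 10 lower (0.409% higher and 0.292% lower), and the basophil, mast cell and eosinophil list split. Prg2 and Epx, eosinophil granule proteins, were higher by 2.05-fold (95% counting interval 1.98 to 2.13) and 2.2-fold (95% counting interval 1.87 to 2.59), while Mcpt8, Cpa3 and Ms4a2 were lower. These ratios rest on few cells, so the intervals are too narrow. In naive and exhausted, 5 cells held 94.1 and 65.9% of the Prg2 UMIs and 98.3 and 85.6% of the Epx UMIs. In exhausted, 1 cell held 65% of the Mcpt8 UMIs. Leaving out the 50 cells richest in the basophil, mast cell and eosinophil list, as above, brought the number of genes 2-fold apart from 24 to 19. The filter acts directly on genes of that list, so this drop does not show how other genes changed. Hspa1b, a heat shock gene, was 2.12-fold (95% counting interval 1.89 to 2.38) lower in exhausted.

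In uninjured aged mice, 10 genes were higher and 40 lower than in control (0.287% higher and 1.15% lower). Lower genes included Mpo, Elane, Prtn3 and Ctsg, which the rule uses, and Nkg7, 1 of 7 measured primary granule genes outside it. Elane stood at 449.6 CPM against 987. None of the 6 such genes measured in secondary-only cells was 2-fold apart. All 15 measured secondary granule genes outside the rule stood above control over all cells, but 4 of 15 did so in secondary-only cells. Olfm4, a secondary granule glycoprotein made by a subset of neutrophils, was the 1 member of that list called 2-fold apart: it stood at 304, 336, 267, 655 and 249.8 CPM in secondary-only cells, highest in aged. There it was 2.16-fold (95% counting interval 1.99 to 2.34) higher than in control, in a comparison with 1.56% of 3015 measured genes 2-fold apart (0.962% higher and 0.597% lower). Olfm4 UMIs were found in 24 of 162 aged and 56 of 708 control cells, 14.8% and 7.91%, and in 7.29%, 7.13% and 5.41% in the naive, the exhausted and the aged-injury library. The 5 highest cells held 42.6% of the aged UMIs. In cells with at least 3 primary granule genes the log2 ratio was -0.19, the other way.

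Further genes of the aged comparison include markers of other cell types. Asprv1, a protease gene that was higher in secondary-only than overlap cells in the 3 young libraries, was 3.78-fold (95% counting interval 2.61 to 5.7) lower in aged, with UMIs in 10.5% of its cells against 24.4% in control. Ear1 and Ear6, eosinophil ribonuclease genes, were 4.44 and 6.21-fold lower, beside Prg2 and Epx. Bach2 and Spib, transcription factors of B cells, were 4.73 and 3.84-fold higher, beside the B cell gene Cd79a and the T cell gene Cd3d. For Spib, 5 cells held 75.9% of the aged UMIs. Of 17 mitosis genes, 2 were lower and none stood above control, with a median log2 ratio of -0.79. In secondary-only cells it was -0.57 over 11 genes, of which 1 (Tpx2) was 2-fold lower. The share of dividing secondary-only cells after thinning was not lower in aged. It was 14.4% (8.89 to 21.6) in aged and 13.3% (10.4 to 16.6) in control.

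Aged-injury left 37 cells to set against 162 in aged, and 17.5% of 3866 measured genes were 2-fold apart (10.8% higher and 6.67% lower). The share was 7.62% of 2861 genes in secondary-only cells (1.64% higher and 5.98% lower), of which aged-injury had 22. Over all 37 cells, of 8 primary granule genes that the rule does not use, 2 (Nkg7 and Prss57) were higher and 1 (Lyz2) lower. Further, 9 of 17 mitosis genes were higher, and 9 of 18 mature neutrophil genes were lower. Mpo, a gene of the rule, stood at 1092, 1880.01, 1743, 481 and 3670.1 CPM over the cells of the 5 libraries, highest in aged-injury and lowest in aged. TMM scaling, which assumes that most genes are alike, moved the median log2 ratio of all genes by -0.30 here, and gave 195 genes higher and 539 lower in place of 418 and 258. Within secondary-only cells, 0 of 6 primary granule genes outside the rule and 2 of 18 mature neutrophil genes were 2-fold apart. Inflammatory genes remained apart there, with 5 of 12 lower: Cxcl2 stood at 563, 631, 525, 647 and 108 CPM in the secondary-only cells of the 5 libraries, lowest in aged-injury. Ccl3, another chemokine, had 0 UMIs against 130 in aged, at least 7.53-fold lower with a floor of 3 UMIs in the library. Retnlg and Mmp9 in the same cells are given above and differed by less than 2-fold. In aged-injury, 18 of the 37 cells had at least 20 UMIs per 10000 of stromal genes.

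**Figure D5:**
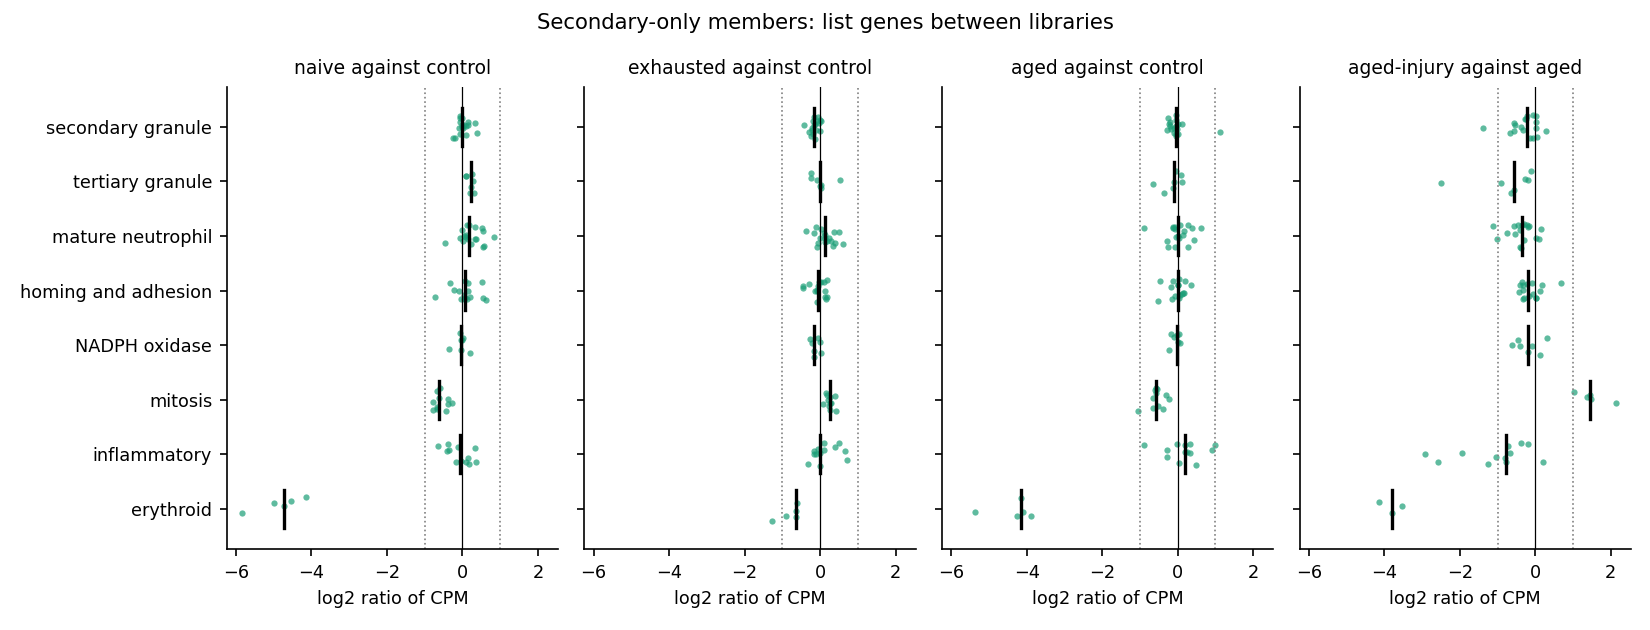
Each point is a gene of a list in secondary-only cells, plotted by its log2 ratio of CPM (x axis) between 2 libraries, 1 panel per comparison; black bars are list medians and dotted lines mark 2-fold. Granule lists centre near 0 in the first 3 panels, while erythroid genes lie far to the left in naive, aged and aged-injury.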

How the data were processed

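For each of 5 libraries the authors deposited raw UMI counts, not normalized. Seurat 5.1 and GRCm39 are named in the submitters' processing notes; no source used here gives the aligner, the counting tool or how cells were called. Libraries were joined by gene symbol (30099 symbols; an unlisted gene counted as 0) and held 95397522, 58895655, 68170277, 62179497 and 224155538 UMIs. No doublet caller was run, and no doublets were removed, so a cell may hold RNA of 2 cells. Of all cells, 42 shared a barcode number with another library, 3 of them under study. UMIs were summed per library and arm and scaled to 1000000 (CPM), so levels are relative and depth sets the precision. A gene was measured with at least 50 CPM, 30 UMIs and 10 cells in either library, and 2-fold apart when it also differed by that ratio; a 0 was set at 3 UMIs. Intervals are exact (Clopper-Pearson, conditional binomial), and the ratio step was tested on simulated data with UMIs drawn independently. UMIs of some genes sat in a few cells, which that simulation did not hold, so ratio intervals of such genes are too narrow. Python 3.11.15, scipy 1.17.1 and edgeR 4.0.16 (TMM only) were used. Genes named are those of the rule, of fixed lists, and up to 10 with the highest and 10 with the lowest ratio per comparison, leaving out other cell types' markers, mitochondrial, ribosomal and unnamed genes, and genes higher in reticular cells. The cells, lists and rule were chosen with earlier results of these data known. Groups came from the labels; the alternatives tried are given in the closing section.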

Additional observations from a re-analysis of the deposited data

Results flagged for a closer look

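Over all immature neutrophils and precursors, 7 genes stood on opposite sides of 1 ablation in young and aged mice, lower in naive against control and higher in aged-injury against aged, by at least 2-fold each way. The difference was not tested, with 1 library per group. Time after ablation also differed, at 2 weeks in naive and 1 week in aged-injury, and cannot be told apart from age. Log2 ratios were -1.07 and 1.26 for Adipoq (adiponectin), -1.48 and 1.12 for Cxcl14, -1.43 and 1.62 for Gpx3, -1.17 and 1.23 for H1f0, -2.03 and 1.22 for Igfbp5, -1.46 and 1.01 for Lepr and -1.38 and 1.06 for Serping1. Adipoq, Igfbp5 and Lepr are on the stromal list. That list summed to 2206, 1162, 1424, 1662 and 5701 CPM in the immature cells and precursors and to 2354, 1246, 999.9 and 2001 CPM in neutrophils outside the rule of the first 4 libraries. In aged-injury, 5 cells held 76.4% of the Adipoq and 73.4% of the Lepr UMIs. With cells of at least 20 UMIs per 10000 on the stromal list left out, the aged-injury against aged log2 ratio was 0.06 for Gpx3 and -1.0 for Serping1. For Igfbp5 it was -1.33, but Igfbp5 is on that list, so the filter acts on its ratio directly.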

How the results depend on the processing

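Of 160 values under alternatives for the shares and the counts of genes 2-fold apart, 101 stayed within the counting interval (shares) or within 1.5 times (counts). Values stand in the library order used above and, for counts of genes, in the order naive, exhausted, each against control, exhausted against naive, aged against control and aged-injury against aged. The cause of these changes was not tested.

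Shares of kept cells were 9.2, 7.81, 16.6 and 2.96% in the first 4 libraries with a mitochondrial share under 10%, and 14.4% in exhausted with at least 1000 genes and 2000 UMIs. With kept cells below the Cxcl12 limit as base they were 22.9, 9.87, 20.7, 8.79 and 0.503%. Leaving out cells rich in stromal RNA gave 5.84, 12.4, 1.83 and 0.097% in control, exhausted, aged and aged-injury, a primary share of 33.5% in control, and 16 and 15 genes in naive and exhausted against control. The base and the stromal filter were chosen after seeing the data. Leaving out cells with at least 2 markers of another lineage removed most cells, 86.4% having 2 or more erythroid ones, and left 0.335, 1.2, 1.74 and 0.344% of kept cells in the first 4 libraries. Their primary shares were then 0, 3.17, 2.75 and 3.85%, their dividing shares 3.23, 14.3, 11.9 and 19.2%, and 234, 218, 92 and 144 genes were 2-fold apart in the first 4 comparisons.

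Primary shares in the first 4 libraries were 19.6, 26.8, 17.6 and 12.8% with at least 4 of the 6 genes and 13.8, 19.1, 13.5 and 9.55% after thinning. Dividing shares were 32.2, 36.5, 31.1 and 25.9% after thinning, and 39.1 and 35.3% in control and exhausted with at least 3 mitosis genes. Genes 2-fold apart numbered 54, 73, 49 and 146 in the first 4 comparisons with at least 20 CPM, and 10, 6, 7, 15 and 185 in all 5 with at least 200 CPM. They numbered 41 in naive against control among cells with at least 3 primary granule genes, and 39 and 218 in exhausted against naive and aged-injury against aged among secondary-only cells.

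Of 965 alternative values for named genes, 734 moved by less than their counting interval, 225 moved by more and 6 changed sign. These 965 include values under the limits of 20 and 200 CPM. Those values could not move, since the limits leave a gene's ratio unchanged, so the 734 overstate how stable the ratios are. Among cells with at least 3 primary granule genes, the log2 ratio was 1.11 for Hba-a1 and 0.92 for Hbb-bs in naive against control, -0.33 for H2-Eb1 in exhausted against control and -0.19 for Olfm4 in aged against control. Without cells rich in stromal RNA, aged-injury against aged gave -1.33 for Igfbp5, a gene of the filter's own list, and -1.0 for Serping1. A further 245 values could not be given, as the gene was not measured under the alternative. No paired analysis was possible because each group is 1 library. The 37 cells of aged-injury limit every comparison that uses them, and counting intervals leave out the spread between animals and, for gene ratios, between cells.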
